A study of Mus musculus with 51 samples.

Results

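The Rhox genes are a cluster of reproductive homeobox genes on the mouse X chromosome, and 5 of them, Rhox2d, Rhox2f, Rhox5, Rhox6 and Rhox9, are followed here through every RNA and chromatin table of a study of LoNA, a nucleolar long noncoding RNA. They were taken by gene name, out of 37525 genes listed in the RNA tables, and were chosen by their counts in stem cells: Rhox2 genes had no reads in control cells and many after LoNA knockdown. That difference made the set and is described by its counts, so calls and ranks drawn from it are given for the record and are no support. The other 32 Rhox genes listed are used as its surroundings.

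Rhox genes encode homeodomain transcription factors that are expressed mainly in testis, epididymis, ovary and placenta. Most copies are silent in somatic tissue, and in mouse embryonic cells the silence of the cluster is known to depend on DNA methylation and on repressive histone methylation. Rhox5, also called Pem, is the best known member and is made in Sertoli cells, in extraembryonic tissue and in embryonal carcinoma cells. Rhox6 and Rhox9, also called Psx1 and Psx2, are known from placenta and from germ cells. The Rhox2, Rhox3 and Rhox4 genes stand in tandem copies of closely similar sequence, so a read may belong to more than one copy, and the values of single copies depend on how the authors' counting treated such reads.

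RNA came from LoNA knockout (KO) embryos and control embryos at 18h, 20h, 22h and 24h, described as 2-cell embryos, and from mouse embryonic stem cells (mESC) labelled as 2C-like, that is resembling the 2-cell embryo, with LoNA knockdown (KD) or as control. Chromatin came from 24h embryos that were LoNA KO with a p300 inhibitor, LoNA KO alone or control, for acetylated nucleophosmin (AcNPM1), and LoNA KO or control for H3K4me3 and H3K27me3. All samples are of strain C57BL/6. How LoNA was deleted or knocked down, how many embryos made up a library and how the 2C-like state was obtained are not given in the sources used here. The knockout and the knockdown were not checked from LoNA's own counts, since no gene is listed under that name.

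At 18h, 20h and 22h each group had 3 libraries, with 12077497 to 18286944 counts each. At 24h each group had 4 columns of 5852761 to 9244870 counts that formed near-identical pairs, which were summed to 2 libraries per group. The KD and control mESC had 2 libraries each with 16906302 to 17674190 counts. Within a group these correlated at 0.991 over log2 CPM (counts scaled to library size), as closely as the columns that were summed at 24h. They were kept apart, so every SD, call and left-out fit in mESC may rest on a single library per group. The spread between libraries that edgeR fitted was 3.39% in mESC and 55.5% to 158% in the embryo comparisons. The summed level of the markers of the 2-cell embryo was 6.32 to 6.41 CPM in KD mESC and 13.4 to 13.5 CPM in control mESC, against 902 to 2516 CPM in the embryo libraries of 18h to 22h. The summed markers of pluripotent cells reached 2787 to 2857 CPM in KD mESC and 5659 to 5666 CPM in control mESC. In the embryo libraries of 18h to 22h the same sum was 76.7 to 205.4 CPM. In bulk libraries such as these, fewer cells that make a transcript and less RNA per cell cannot be told apart.

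The Rhox2 genes were well covered in the knockdown cells and had almost no reads in the control cells. Rhox2d had 406 and 489 counts in KD mESC and 0 and 0 in control mESC. Rhox2f had 391 and 402 counts in KD mESC and 0 and 0 in control mESC. Both KD libraries were alike and both control libraries were empty for these genes. Their mean levels were 26.4 ± 3.87 CPM for Rhox2d and 23.4 ± 0.821 CPM for Rhox2f in KD mESC (SD, n = 2), and with the floor of 3 counts over the control group these are at least 307-fold and at least 272-fold higher. Among 16406 genes tested in mESC, Rhox2d ranked 2 and Rhox2f ranked 4 by fitted log2 change. These ranks come from the contrast that chose the set, so they are given for the record and are no support.

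The other Rhox2 copies did the same at their own levels. Rhox2c held 231 and 286 counts in KD mESC and none in control mESC, and Rhox2a held 217 and 259 counts in KD mESC and none in control mESC. Rhox2g held 214 and 254 counts in KD mESC and Rhox2e 76 and 89, again with none in control mESC. Rhox2h, with 301 and 320 counts in KD mESC, was the only copy of Rhox2a to Rhox2h with a read in control mESC, where it had 2 and 0. Rhox2b was the weakest copy, with 6 and 13 counts in KD mESC and none in control mESC. Summed over Rhox2a to Rhox2h, which does not depend on how reads were divided between these copies, KD mESC had 1842 and 2112 counts and control mESC had 2 and 0. That sum gives a ratio of 2031 with a 95% counting interval of 562 to 16773, which covers counting error only.

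The sequence before these genes is shown because 7 Rhox2 copies share it closely, the weakest copy Rhox2b included. RefSeq's promoter windows on GRCm38.p6, 250 bases before to 50 bases after the start, were at hand for 28 Rhox genes, among them the members Rhox2d and Rhox5. The 7 Rhox2 windows were 94.0% to 100% identical in the aligned part over their 21 pairs. Each of the 7, and the window of Rhox5, held the letters CTTCCGG once, searched on both strands together with the reverse complement CCGGAAG. These letters contain the GGAA core that ETS family factors such as GABP bind, and capitals mark them in the sequences that follow, all on the plus strand of chromosome X.
Rhox2d, chrX:37493160-37493459: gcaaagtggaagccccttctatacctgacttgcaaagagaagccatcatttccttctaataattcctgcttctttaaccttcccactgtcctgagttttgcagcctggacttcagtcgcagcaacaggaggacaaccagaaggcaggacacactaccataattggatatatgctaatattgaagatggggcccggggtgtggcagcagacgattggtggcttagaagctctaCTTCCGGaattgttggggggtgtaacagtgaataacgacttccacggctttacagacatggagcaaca
Rhox2a, chrX:37244742-37245041: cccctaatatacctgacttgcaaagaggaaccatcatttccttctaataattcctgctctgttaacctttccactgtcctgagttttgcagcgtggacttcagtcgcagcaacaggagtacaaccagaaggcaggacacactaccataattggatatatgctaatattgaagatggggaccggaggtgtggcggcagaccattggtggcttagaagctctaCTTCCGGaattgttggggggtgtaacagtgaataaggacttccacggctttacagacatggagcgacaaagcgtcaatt
Rhox5, chrX:37754358-37754657: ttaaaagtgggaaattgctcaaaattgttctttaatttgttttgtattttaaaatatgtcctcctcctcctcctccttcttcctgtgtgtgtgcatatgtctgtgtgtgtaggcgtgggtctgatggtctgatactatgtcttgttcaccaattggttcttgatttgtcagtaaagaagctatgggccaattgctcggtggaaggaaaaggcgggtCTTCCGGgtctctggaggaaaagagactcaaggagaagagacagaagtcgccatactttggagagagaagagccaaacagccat
Rhox4b, chrX:37432244-37432543: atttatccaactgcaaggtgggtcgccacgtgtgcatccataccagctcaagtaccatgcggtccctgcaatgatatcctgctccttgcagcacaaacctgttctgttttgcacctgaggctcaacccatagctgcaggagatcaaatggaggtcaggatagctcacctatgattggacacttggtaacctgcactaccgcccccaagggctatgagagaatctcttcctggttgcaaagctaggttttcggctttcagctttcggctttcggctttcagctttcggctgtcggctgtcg
Rhox10, chrX:38066225-38066524: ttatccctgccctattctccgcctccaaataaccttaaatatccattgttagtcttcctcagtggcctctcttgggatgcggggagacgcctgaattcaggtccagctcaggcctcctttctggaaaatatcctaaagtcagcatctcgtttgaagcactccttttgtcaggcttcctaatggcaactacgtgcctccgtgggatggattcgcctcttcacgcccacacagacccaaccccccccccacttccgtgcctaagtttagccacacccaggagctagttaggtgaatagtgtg

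The first base of the match lay 18 bases before the start in Rhox2d, 29 bases before it in Rhox2a and 34 bases before it in Rhox5. Over all 32851 promoter windows of the same length, 2910 or 8.86% held these letters on either strand. The remaining 20 Rhox windows did not hold them, Rhox4b and Rhox10 included. All 8 Rhox genes with the match had more counts in KD mESC than in control mESC, in the contrast that chose the set. The 7 Rhox2 windows among them are near copies of each other. Of the Rhox genes listed for mESC whose window lacked the match, only Rhox10 and Rhox13 had fewer counts in KD mESC. The others had more, among them Rhox1, Rhox4a, Rhox4b and, with few counts, Rhox3c and Rhox3g. Rhox2b, with the match, had 19 counts in KD mESC, and Rhox4b, without it, had 40. The match alone thus does not separate the genes that were higher. CG dinucleotides numbered 6 in the Rhox2d window, 8 in that of Rhox2a and 5 in that of Rhox5, where the median of all windows was 7. Only these letters and their reverse complement were searched for. The match is a description of the letters in this window, and no binding was measured there.

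Rhox5 had reads in the control cells already and many more in the knockdown. It held 2666 and 2719 counts in KD mESC and 329 and 303 counts in control mESC. The groups lay far apart, with 158.7 ± 4.67 CPM in KD mESC and 18.1 ± 1.06 CPM in control mESC (SD, n = 2 each). The fitted change was 3.13 on the log2 scale, or 8.75-fold in the means. The start listed for Rhox5 in the count tables lies 50234 bases from the RefSeq start whose window is printed, so the window stands at an upstream start of this gene.

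Rhox6 and Rhox9 had few counts, fewer in KD mESC than in control mESC. Rhox6 had 18 and 7 counts in KD mESC and 32 and 24 in control mESC, or 0.733 ± 0.447 CPM in KD mESC and 1.61 ± 0.325 CPM in control mESC. Rhox9 had 14 and 22 counts in KD mESC and 28 and 27 in control mESC, or 1.06 ± 0.350 CPM in KD mESC and 1.58 ± 0.0409 CPM in control mESC. Neither pair of groups overlapped, as for 42.4% of all tested genes that lay lower in KD mESC without overlap and 44.1% that lay higher, and the counts were small. The fitted changes were -1.12 for Rhox6 and -0.57 for Rhox9 on the log2 scale. That of Rhox6 was -1.91 without KD library 1 and -0.59 without KD library 2.

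**Figure D1:**
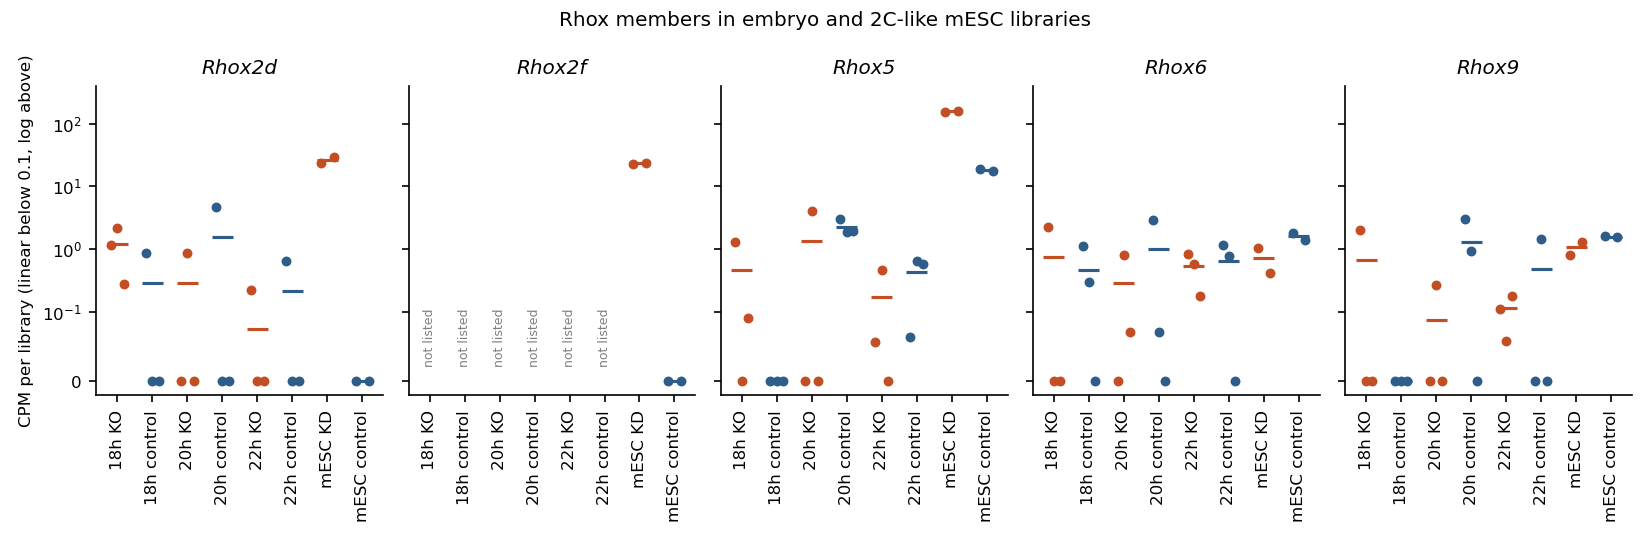
Level of the 5 Rhox genes in each library, in CPM on an axis that is linear below 0.1 and logarithmic above, with LoNA KO or KD in orange, control in blue and a bar at each group mean. Rhox2d and Rhox2f sit above 20 CPM in both KD mESC libraries and at 0 in both control mESC libraries, while the embryo libraries scatter at a few CPM or less.

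Around the 5 members, the Rhox genes with clearly more counts in KD mESC lay in the first part of the cluster, up to Rhox5. Several other genes there had few or no counts in either group, and some are not listed for mESC. Rhox1, the gene at the near end of the cluster, had 261 and 258 counts in KD mESC and 30 and 18 in control mESC. Rhox4b had 23 and 17 counts and Rhox4a 15 and 18 in KD mESC, and both had none in control mESC. Rhox4a2 had 3 and 13 counts in KD mESC and none in control mESC. The pseudogene Rhox7-ps2 had 78 and 111 counts in KD mESC against 1 and 13 in control mESC, and Rhox2-ps had 95 and 75 against 8 and 7. Beyond Rhox5, apart from the members Rhox6 and Rhox9, Rhox13, a gene of male germ cells, had 10 and 11 counts in KD mESC and 18 and 24 in control mESC, and Rhox10, known from spermatogonial stem cells, had 2 and 6 against 17 and 7. Rhox7-ps1, the last gene of the cluster, had 4 and 8 counts in KD mESC and 10 and 5 in control mESC. The other Rhox genes listed beyond Rhox5 had at most 3 counts in a library, each with slightly more in KD mESC.

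Of the 31 Rhox genes listed for mESC, 16 passed the filter on low counts, all 5 members among them. By edgeR's quasi-likelihood test, at an adjusted p of 0.05, 13 of the 16 were called higher in KD mESC and 2, Rhox6 and Rhox13, lower, where 38.9% of all tested genes were called higher and 35.3% lower. The contrast is the one that chose the set, and copies with no control reads passed the filter only through the KD libraries. Their higher calls were therefore fixed in advance, so these counts are given for the record. Rhox9 was not called. The lower calls depended on the settings: DESeq2 and edgeR without the filter each called 15 higher and 0 lower. Rhox13 was called by edgeR with the filter on all 4 libraries, under the TMM or RLE factors. It was not called in any other fit, including the one with column numbers as a replicate block. Summed over every Rhox gene listed, KD mESC had 308.0 ± 19.2 CPM and control mESC 26.1 ± 1.91 CPM.

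Genes next to the cluster were called in both directions. Of 28 other genes listed within 500000 bases of the cluster or between its genes, 17 were tested, with 8 called higher and 4 lower in KD mESC and a median log2 change of 0.19, against 0.01 over all genes. Over all tested genes 38.9% were called higher and 35.3% lower, and neither the neighbours nor the gene lists that follow were tested against that share. The neighbour with the highest fitted change was Sept6, a septin gene, at 90.2 CPM in KD mESC and 27.8 CPM in control mESC, and the lowest was Cul4b, a cullin of ubiquitin ligases, at 168.9 CPM in KD mESC and 323.7 CPM in control mESC. Zbtb33, which lies between Rhox13 and Rhox7-ps1 and encodes the methyl-CpG binding protein Kaiso, had 19.8 CPM in KD mESC and 23.0 CPM in control mESC.

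**Figure D2:**
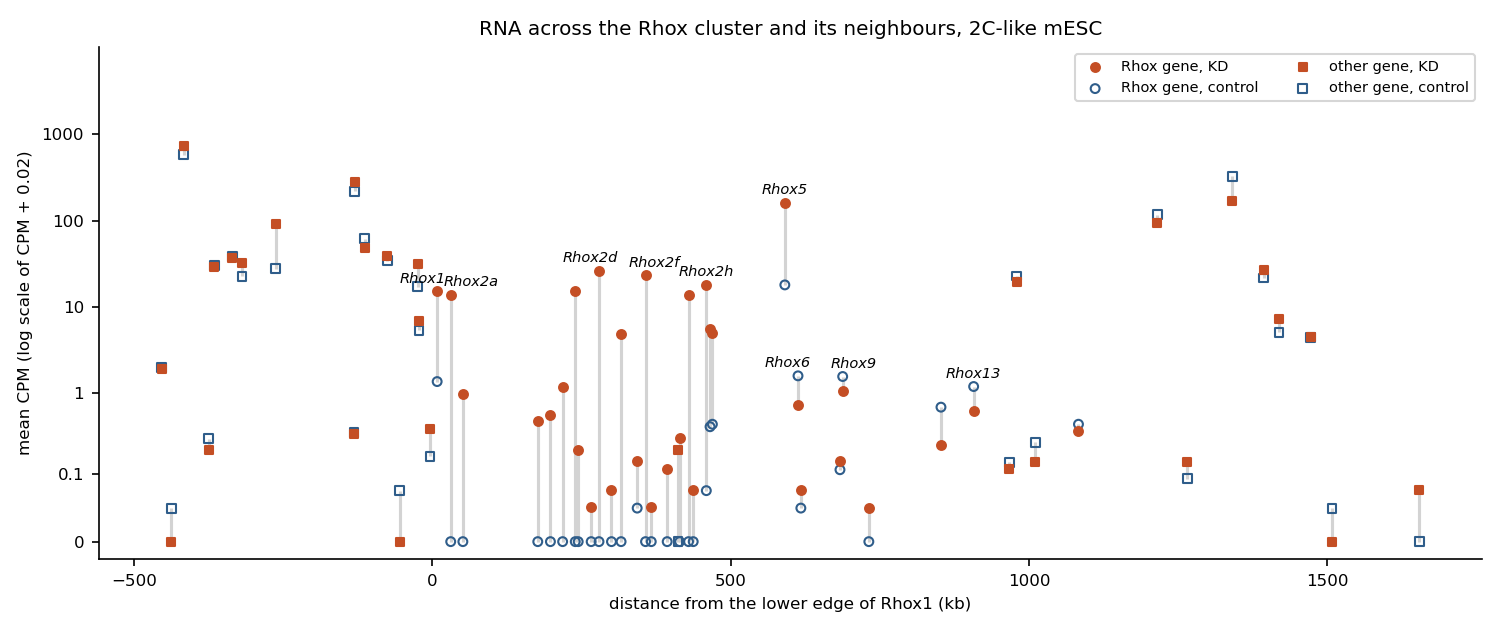
Mean CPM in mESC along the cluster and its flanks, on a log scale of CPM + 0.02, with KD as filled orange and control as open blue symbols, circles for Rhox genes and squares for other genes, and a grey line joining both values of a gene. The listed Rhox genes from Rhox1 to Rhox5 lie higher in KD, most of them with 0 in control. Several of these lie near 0 in both groups. Most squares lie close to their control values.

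Genes known to keep methylated germline genes silent were measured in the same cells. Of 20 DNA methylation and heterochromatin repressors tested, 4 were called higher and 11 lower in KD mESC, with a median log2 change of -0.15. The 3 with the highest levels were Trim28, a corepressor of transposons, at 883.7 CPM in KD mESC and 1133 CPM in control mESC, Cbx5, which encodes the heterochromatin protein HP1 alpha, at 471.4 CPM in KD mESC and 564.5 CPM in control mESC, and Dnmt1, the maintenance DNA methyltransferase, at 390.7 CPM in KD mESC and 419.5 CPM in control mESC. Of 12 subunits of PRC1.6, a Polycomb complex that represses germline genes, 4 were called higher and 3 lower, with a median log2 change of 0.04. Its DNA-binding subunit Mga had 174.1 CPM in KD mESC and 390.9 CPM in control mESC, Tfdp1 had 336.9 CPM in KD mESC and 248.6 CPM in control mESC, and Cbx3 had 203.2 CPM in KD mESC and 198.4 CPM in control mESC.

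The Tet and Dppa list, of factors that act in DNA demethylation or limit methylation, had 1 of 8 tested genes called higher and 5 lower in KD mESC, with a median log2 change of -0.72. Tet1, which oxidises methylated cytosine, had 282.5 CPM in KD mESC and 895.5 CPM in control mESC. Tet2 had 83.2 CPM in KD mESC and 204.5 CPM in control mESC, and Usp7 had 362.3 CPM in KD mESC and 536.8 CPM in control mESC. Of 9 factors reported to act on the Rhox5 promoters, 2 were called higher and 5 lower, with a median log2 change of -0.60. Gabpa, the ETS subunit of GABP, had 128.4 CPM in KD mESC and 209.9 CPM in control mESC, while Sp1 had 222.5 CPM in KD mESC and 355.9 CPM in control mESC and Sp3 had 119.9 CPM in KD mESC and 137.9 CPM in control mESC.

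A list of other genes reported as germline genes under methylation was called in both directions. Of 35 on the list, 30 were tested, with 5 called higher and 20 lower in KD mESC and a median log2 change of -0.98. Asz1, a germ cell gene of the piRNA pathway, stood apart from that median with 85.5 ± 0.881 CPM in KD mESC against 0.115 ± 0.0811 CPM in control mESC. Sohlh2, a germ cell transcription factor, had 54.5 CPM in KD mESC and 32.6 CPM in control mESC, and Brca2, a DNA repair gene, had 69.0 CPM in KD mESC and 115.3 CPM in control mESC. The list thus holds genes that were not silent in control mESC, and its counts do not describe silenced genes alone.

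Markers of the cell types that these libraries could hold were measured as well. All 10 markers of pluripotent cells were called lower in KD mESC, among them Dppa5a, Tdgf1 and Esrrb, with a median log2 change of -1.01. Markers of the 2-cell embryo had 0 of 7 tested genes higher and 6 lower, and Zscan4c, Zscan4d and Zscan4a each stayed below 3 CPM in both groups. Trophoblast and placenta markers summed to 59.7 to 63.8 CPM in KD mESC and 98.2 to 99.7 CPM in control mESC, with 2 of 8 tested genes higher and 5 lower, Tfap2c, Krt8 and Krt18 among the lower. Extraembryonic endoderm markers summed to 662.6 to 665.1 CPM in KD mESC and 797.0 to 806.3 CPM in control mESC, with 2 of 11 higher, Col4a2 and Gata4, and 8 lower. Primordial germ cell markers summed to 113.6 to 119.2 CPM in KD mESC and 259.2 to 260.9 CPM in control mESC, with 0 of 9 higher and 7 lower, Kit, Tfap2c and Ddx4 among the lower. Sertoli cell markers had a higher sum in KD mESC, at 189.7 to 194.8 CPM in KD mESC and 150.9 to 155.7 CPM in control mESC, where 2 of 7 were higher and 3 lower; Gata4, also an endoderm marker, had 58.9 CPM in KD mESC and 7.72 CPM in control mESC, while Dmrt1 and Inhbb were lower. Cumulus and granulosa markers had 0 of 7 higher and 4 lower, with Inhba at 11.2 CPM in KD mESC and 25.9 CPM in control mESC. Star had 9.39 CPM in KD mESC and 8.20 CPM in control mESC, and Amhr2 had 7.75 CPM in KD mESC and 8.32 CPM in control mESC. No sperm and testis marker passed the filter, and their sum was 0.408 to 0.596 CPM in KD mESC and 0 to 0.115 CPM in control mESC. The part of these cell types in the Rhox values was not tested.

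In embryos the Rhox genes were scarce, uneven between libraries, and no difference between KO and control passed the test at any time. At 18h Rhox2d had 19, 28 and 3 counts in the KO libraries and 11, 0 and 0 in the control libraries. Rhox5 had 21, 0 and 1 counts in KO embryos and none in control embryos, Rhox6 had 37, 0 and 0 counts in KO embryos and 14, 5 and 0 in control embryos, and Rhox9 had 33, 0 and 0 counts in KO embryos and none in control embryos. KO library 1 held 110 of the 172 member counts of 18h, or 64.0%, and the KO and control libraries overlapped for every member, where 5.79% of all tested genes lay higher and 7.04% lower without overlap. Rhox2f is not listed in the embryo tables. Of 20 Rhox genes listed at 18h, 2 passed the filter, and edgeR called 0 of them, where 0.00649% of all tested genes were called in either direction; none had an unadjusted p under 0.05, against 793 of 15416 genes. DESeq2 also called 0 Rhox genes, where it called 98 genes, or 0.48% of those it tested. Rhox2d, the tested member, had a log2 change of 2.05 (SE 1.90, adjusted p = 0.99988, edgeR). That change was 7.11 without control library 1 and 1.30 to 2.47 with any other library left out, lowest without KO library 2.

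At 20h most member counts came from 1 library of each group. Rhox5 had 0, 62 and 0 counts in KO embryos and 43, 26 and 23 in control embryos. Rhox2d had 0, 13 and 0 counts in KO embryos and 68, 0 and 0 in control embryos, while Rhox6 had 0, 12 and 1 in KO embryos and 42, 1 and 0 in control embryos, and Rhox9 had 0, 4 and 0 in KO embryos and 43, 13 and 0 in control embryos. Control library 1 held 196 of the 351 member counts and KO library 2 held 91, and the groups overlapped for every member, where 4.65% of all tested genes lay higher and 5.22% lower without overlap. Rhox5 was the member present in all 3 control libraries, at 2.26 ± 0.637 CPM, against 1.37 ± 2.37 CPM in KO embryos (SD, n = 3 each). Its log2 change was -0.72 (SE 1.92, adjusted p = 0.998, edgeR), with KO library 2 above and the other KO libraries below all 3 control libraries. Without KO library 2 it was -7.98, and without KO library 1 or 3 it was -0.13 and -0.14. Of 22 Rhox genes listed, 4 passed the filter and 0 were called, where 0.0138% of all tested genes were called; 0 had an unadjusted p under 0.05, against 532 of 14524 genes. DESeq2 called 0 Rhox genes and 32 genes in all, or 0.204%.

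At 22h the members were spread more evenly. Rhox6 had 15, 10 and 3 counts in KO embryos and 18, 13 and 0 in control embryos. Rhox5 had 1, 8 and 0 counts in KO embryos and 1, 11 and 10 in control embryos, Rhox9 had 2, 1 and 3 in KO embryos and 0, 24 and 0 in control embryos, and Rhox2d had 4, 0 and 0 in KO embryos and 10, 0 and 0 in control embryos. The groups overlapped for all of the 4 members listed, where 4.73% of all tested genes lay higher and 4.5% lower without overlap. Rhox6 had a log2 change of -0.27 (SE 1.54, adjusted p = 0.99996, edgeR). Its direction turned when KO library 3 or control library 1 was left out, at 0.14 and 0.45. Of 27 Rhox genes listed, 3 passed the filter and 0 were called, where 0.00656% of all tested genes were called; 0 had an unadjusted p under 0.05, against 481 of 15251 genes. DESeq2 called 0 Rhox genes and 4 genes in all, or 0.0139%.

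**Figure D3:**
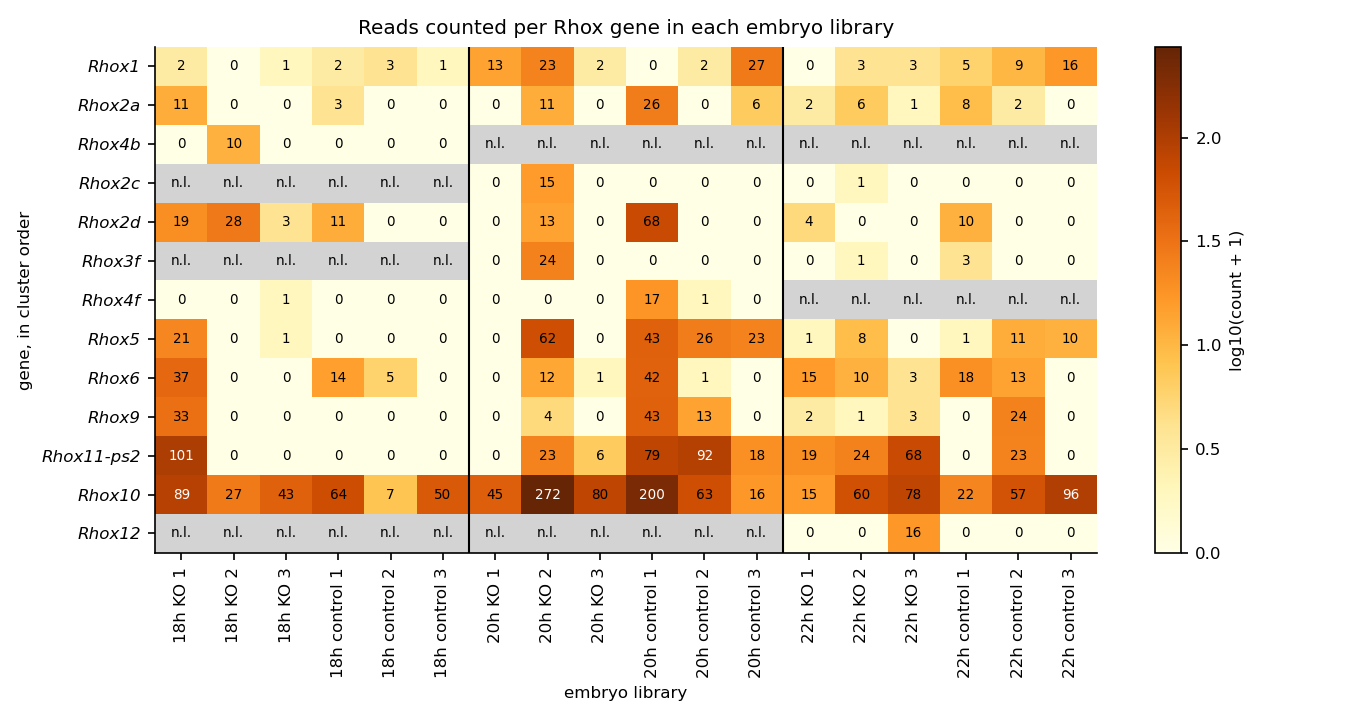
Counts of each Rhox gene with at least 10 counts in an embryo library, in cluster order, with the KO libraries left of the control libraries at each time and colour on a log10(count + 1) scale; n.l. marks a gene that the table of that time does not list. The member counts gather in single libraries, KO 1 at 18h and KO 2 and control 1 at 20h, while Rhox10 has counts in all 18 libraries.

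At 24h none of the 5 members is listed among the 13718 genes of the table. The 24h libraries had counts for 7877 to 10167 genes each, against 17125 to 22370 in the libraries of 18h to 22h. Mitochondrial transcripts made up 12.9% to 19.3% of their counts, against 1.62% to 9.84% at 18h to 22h. A gene that is not listed at 24h is therefore not evidence of a silent gene. Of 6 Rhox genes listed there, 1 was tested and 0 were called, where 0% of all tested genes were called by edgeR; 0 Rhox genes and 383 of 7425 genes had an unadjusted p under 0.05. DESeq2 called 0 Rhox genes, where it called 1405 genes, or 16.2% of those it tested, and edgeR with every deposited column as a library called 0 Rhox genes and 823 genes in all. The tested gene was Rhox4f, a homeobox gene of the Rhox4 copies, which had a log2 change of 0.52 (SE 2.89, adjusted p = 0.99992, edgeR). Rhox4f had 0 and 29 counts in KO embryos and 20 and 0 in control embryos, so 1 library of each group held its reads. Rhox10 had no count in KO embryos and 288 and 0 in control embryos, which left it under the filter.

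Of the other Rhox genes, Rhox10 had counts in every embryo library of 18h to 22h. It had 89, 27 and 43 counts in KO embryos and 64, 7 and 50 in control embryos at 18h. Rhox10 had 45, 272 and 80 counts in KO embryos and 200, 63 and 16 in control embryos at 20h, and 15, 60 and 78 in KO embryos and 22, 57 and 96 in control embryos at 22h. The groups overlapped at each time, with log2 changes of 0.40, 0.42 and -0.22. The pseudogene Rhox11-ps2 had 0, 23 and 6 counts in KO embryos and 79, 92 and 18 in control embryos at 20h (log2 change -2.79, SE 1.59, adjusted p = 0.998, edgeR), but 101, 0 and 0 counts in KO embryos and none in control embryos at 18h. At 22h Rhox11-ps2 had 19, 24 and 68 counts in KO embryos and 0, 23 and 0 in control embryos (log2 change 2.22, SE 1.62, adjusted p = 0.99996, edgeR). The sign of its difference was not the same at each time, and it was called at none. Rhox1 had 13, 23 and 2 counts in KO embryos and 0, 2 and 27 in control embryos at 20h. At 22h it had 0, 3 and 3 counts in KO embryos and 5, 9 and 16 in control embryos, groups that did not overlap, as for 4.5% of tested genes lower in KO at 22h, but it stood under the filter and was not tested. The remaining Rhox genes with 10 counts in a library, namely Rhox2a, Rhox2c, Rhox3f, Rhox4b, Rhox4f and Rhox12, had at most 26 counts in any library of 18h to 22h. All Rhox genes summed gave 320, 65 and 53 counts in KO embryos and 109, 15 and 51 in control embryos at 18h. At 20h that sum was 58, 465 and 95 in KO embryos and 523, 214 and 100 in control embryos, and at 22h it was 84, 133 and 180 in KO embryos and 76, 147 and 125 in control embryos.

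Time was tested over the 18 libraries of 18h, 20h and 22h with genotype as a term. Of 8 Rhox genes that entered this fit, the members Rhox2d, Rhox5, Rhox6 and Rhox9 among them, 0 were called, where 21.2% of all tested genes were called. Rhox5 was the member with the smallest p (unadjusted p = 0.114, adjusted p = 0.272, edgeR), with a log2 change of 3.19 at 20h over 18h and -2.60 at 22h over 20h. Without KO library 1 of 18h, 2 Rhox genes were called, Rhox5 and Rhox11-ps2 (log2 changes of 6.20 and 8.26 at 20h over 18h, adjusted p = 0.042 and 0.027, edgeR). Both had at most 1 count in each of the other 18h libraries. Each time is its own table, so time and library batch cannot be told apart.

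Whether the KO effect differed between these times was tested in the same libraries, and 0 of the 8 Rhox genes were called, where 0% of all tested genes were called. Among the members Rhox9 had the smallest p (unadjusted p = 0.056, adjusted p = 0.793, edgeR), and Rhox11-ps2 had an unadjusted p of 0.023 with an adjusted p of 0.783. The lists of repressors, PRC1.6 subunits, demethylation factors, Rhox5 promoter factors, germline genes and cell type markers had 0 called genes in either direction at 18h, 20h, 22h and 24h.

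Set beside each other, the levels of a member ordered the groups differently for each gene. Rhox2d was highest in KD mESC at 26.4 ± 3.87 CPM, followed by 20h control embryos at 1.58 ± 2.73 CPM and 18h KO embryos at 1.20 ± 0.939 CPM, and it had no count in control mESC. Rhox5 was highest in KD mESC and next in control mESC, and then in 20h control embryos at 2.26 ± 0.637 CPM; below that the SDs of neighbouring groups overlapped, down to no count in 18h control embryos. Rhox6 and Rhox9 were highest in control mESC, at 1.61 and 1.58 CPM, and no step between neighbouring groups in their order was larger than both SDs, from there down to 0.288 ± 0.439 CPM for Rhox6 in 20h KO embryos. In an embryo group with no count the floor of 3 counts corresponds to 0.0665 CPM at 18h, which bounds counting error only. The tables were made separately by time and cell type, so this order is a description.

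The genes whose pattern over the 8 groups of 18h, 20h, 22h and mESC was most like a member were found among 30685 genes by the root mean square difference in mean-centred log2(CPM + 1). For Rhox2d they were Naip2, Sobp, Rhox2h, Icam2 and Mlkl, with differences of 0.26 to 0.34. For Rhox2f they were Icam2, Rhox2h, Naip2, Vwa5b1 and Gm8091, at 0.027 to 0.16. For Rhox5 they were Trib3, Ncam1, Grk3, Pcsk1n and Gap43, at 0.45 to 0.47. Rhox6 was matched by Iws1, Gm20554, Gm26935, Gm14760 and AC158593.1 at 0.081 to 0.10, and Rhox9 by Tram1l1, Pigl, Gm26813, Plcd4 and Lzic at 0.15 to 0.17. Only the lists of the Rhox2 members included another Rhox gene. The mESC groups that chose the Rhox2 genes are among the 8, so a match between Rhox2 copies was built in. Rhox2f had no listed value in the embryo groups, so its only counts here are those of the mESC groups that chose the set. All its matches, Icam2 included, rest on them. Rhox6 and Rhox9 were low in every group, with highest means of 1.61 and 1.58 CPM, so their matches lie near the floor.

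In chromatin of 24h embryos, 2 of the 5 members carried a called region of H3K4me3, the mark of active or poised starts at their start, namely Rhox6 and Rhox9, where 72.5% of 20022 protein-coding genes had one within 2000 bases of the start. A region of 1020 bases on mm10 at chrX:37826861-37827880 covered the start of Rhox6, with 116 reads or 2.34 RPM (reads scaled to the total of the condition; 95% counting interval 1.93 to 2.80) in LoNA KO and 150 reads or 2.25 RPM (1.91 to 2.64) in control. A region of 1269 bases at chrX:37900712-37901980 covered the start of Rhox9, with 140 reads or 2.82 RPM (2.37 to 3.33) in LoNA KO and 175 reads or 2.63 RPM (2.25 to 3.05) in control. Within each region the intervals of KO and control overlapped. The log2 ratios of KO over control were 0.05 at Rhox6 and 0.10 at Rhox9, where the median of all 48658 H3K4me3 regions was -0.13. Both were weak regions, above only 17.7% and 22.9% of all regions by control RPM. No region lay within 2000 bases of the listed starts of Rhox2d, Rhox2f or Rhox5, nor within 2000 bases of the upstream start of Rhox5, where the nearest was 72253 bases away.

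Over all 37 Rhox genes, 3 had an H3K4me3 region within 2000 bases of the start, Rhox6, Rhox9 and Rhox13. At Rhox13 the region began 34 bases from the listed start, with 2.07 RPM (1.69 to 2.52) in LoNA KO and 2.37 RPM (2.02 to 2.77) in control. Inside the Rhox2 copies the authors' table listed a region only in the body of Rhox2e, with 3.32 RPM (2.84 to 3.87) in LoNA KO and 3.69 RPM (3.25 to 4.19) in control. How the authors' mapping placed reads that match several Rhox2 copies is not given in the sources used here, so a Rhox2 start with no called region is not evidence of an unmarked start.

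H3K27me3, the mark set by PRC2, was called at the start of 1 Rhox gene, Rhox13, and at none of the 5 members, where 17.8% of protein-coding genes had such a region. The limit on reads that match several copies holds for this mark too. The Rhox13 region had 135 reads or 2.69 RPM (2.26 to 3.19) in LoNA KO and 99 reads or 2.095 RPM (1.70 to 2.55) in control, so the intervals overlapped, and the log2 ratio of 0.36 stood against a median of 0.06 over 11638 regions. Farther from a start, a region inside Rhox1 had 1.36 RPM (1.05 to 1.72) in LoNA KO and 1.71 RPM (1.36 to 2.13) in control, and a region inside Rhox7-ps1 had 2.57 RPM (2.15 to 3.06) in LoNA KO and 2.29 RPM (1.87 to 2.76) in control.

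No AcNPM1 region was listed within 2000 bases of the start of any of the 37 Rhox genes, where 15.8% of protein-coding genes had one in the table of KO and control and 18.2% in the table of KO with and without the p300 inhibitor. Reads that match several tandem copies may be missing here as well, so no called region at such a copy is not evidence of an unmarked start. The nearest region of LoNA KO and control, at chrX:38252016-38252662, lay 44206 bases from the start of Rhox7-ps1, with 4.49 RPM (3.98 to 5.06) in LoNA KO and 3.43 RPM (2.82 to 4.13) in control. In the inhibitor table the nearest, at chrX:38252011-38252662, lay 44206 bases from the same start, with 4.13 RPM (3.50 to 4.83) in LoNA KO with the p300 inhibitor and 4.49 RPM (3.98 to 5.06) in LoNA KO alone. In both tables the intervals of the conditions overlapped. Each chromatin value is 1 deposited column per condition, so no difference between conditions has a replicate check.

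**Figure D4:**
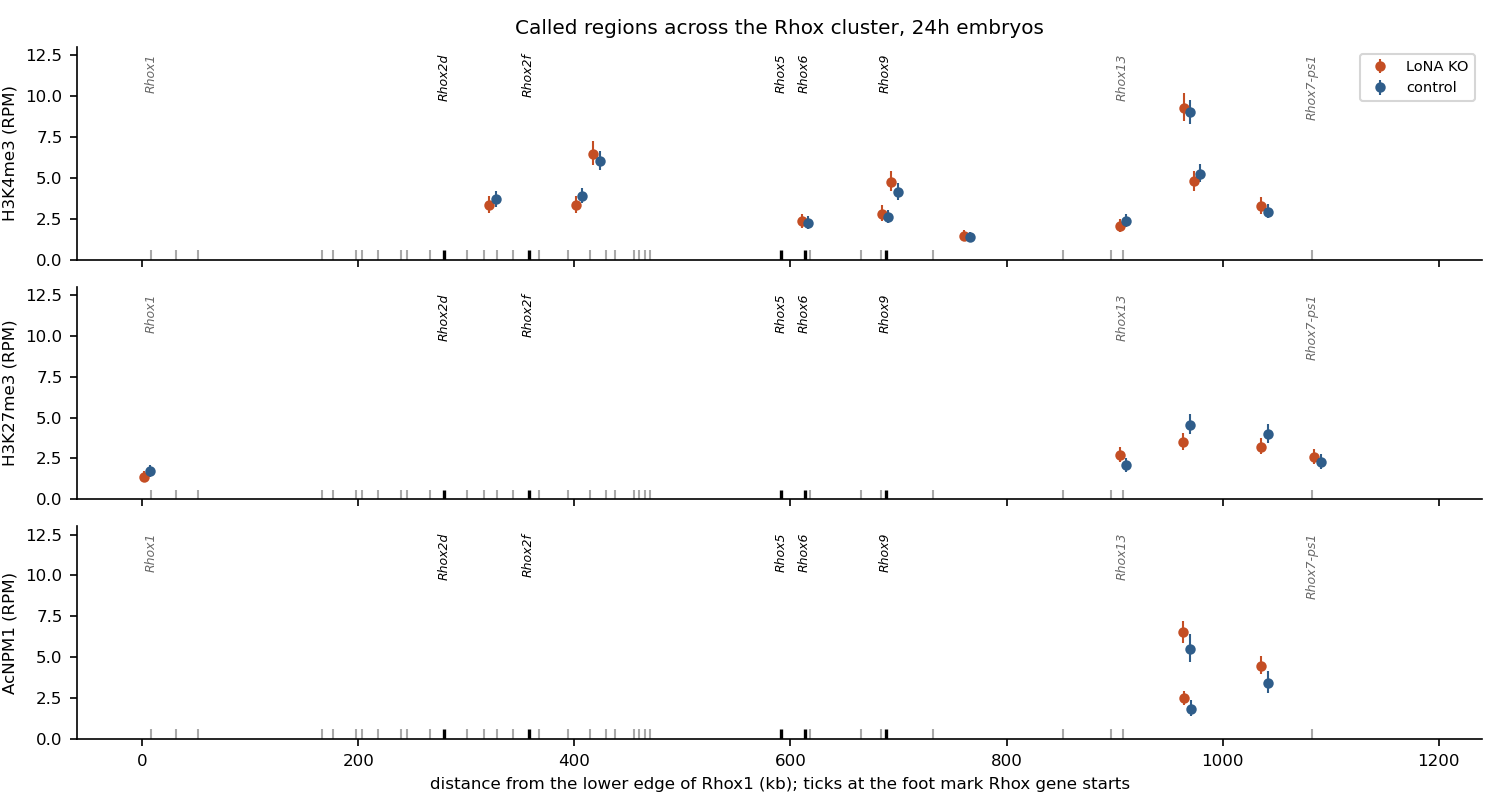
Called regions of H3K4me3, H3K27me3 and AcNPM1 across the cluster in 24h embryos, in RPM with 95% counting intervals, LoNA KO in orange left of control in blue; ticks at the foot mark the starts of Rhox genes, black for the 5 members. H3K4me3 regions stand at Rhox6 and Rhox9 near 2 to 3 RPM, no region stands at Rhox2d, Rhox2f or Rhox5, and the AcNPM1 regions shown lie beyond Rhox13.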

How the data were processed

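The deposited RNA tables hold raw counts per gene for each time and for mESC, with positions on mm10, and a mean signal over libraries that the authors computed; the counts of all listed Rhox genes gave this mean within 0.02 on the log2 scale. For RNA the tools HTSeq 0.6.0, HISAT2 2.1.0 and Bowtie2 2.2.3 are named, per the submitters' processing notes, and for chromatin MACS2 2.1.1, Bowtie2 2.1.0 and bcl2fastq 2.2. Whether counting used strand or reads of several matches is not given in the sources used here. The deposited peak tables give, per region, the authors' read counts, the total reads of each condition (another quantity) and RPM, which equalled the reads scaled to that total. The H3K4me3 and H3K27me3 columns carry initials; the numerator of the deposited ratio was taken as KO, after the table's wording.

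Columns were assigned to groups by name; 3 of 4 labelled samples per group have a column at 18h to 22h and 2 of 3 in mESC, so library numbers follow the columns and not the labelled replicates. Columns of 24h that correlated above 0.99 were summed, while the mESC columns, which also did, were kept apart. The labels do not say whether replicates are separate pools or cultures, so p-values reflect the spread among libraries, which may be technical. Counts were fitted with edgeR 4.0.16 in R 4.3.3 (TMM, filterByExpr, quasi-likelihood test, Benjamini-Hochberg over all tested genes, threshold 0.05), checked on simulated data. DESeq2 1.42.0, other size factors, no filter and leaving out each library were tried. A region belonged to a start within 2000 bases. Intervals on reads are exact Poisson, and the interval on a ratio of counts is exact binomial; both cover counting error only. Promoter sequences are RefSeq's on GRCm38.p6, the same build as mm10, aligned with biopython 1.88.

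The members and all lists were chosen with earlier results of these data known. Named were the 5 members, other Rhox genes and neighbours with at least 10 counts in a library, the 3 tested genes of highest mean CPM of each list, and the 5 genes most like each member.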

Additional observations from a re-analysis of the deposited data

How the results depend on the processing

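No Rhox gene was called at 18h, 20h, 22h or 24h, or for a KO effect differing between times, under the RLE factors, without a filter or with any library left out, and DESeq2, run for each time, called none either (98, 32, 4 and 1405 genes in all at 18h, 20h, 22h and 24h). The time test called 0 Rhox genes in all settings but 1, and 0 to 2 with a library left out: without KO library 1 of 18h it called 2. The mESC count of 15, given for the record, was 14 to 15 under the other settings that kept all libraries. The calls differed: DESeq2 and no filter each gave 15 higher and 0 lower, against 13 and 2. The change of Rhox6 at 22h, -0.27 on the log2 scale, ranged from -0.86 to 0.45 with a library left out and reversed to 0.14 without KO library 3, 0.45 without control library 1 and 0.45 (0.4483) with the column number as a replicate block; the cause was not tested. With Rhox promoter regions sought within 5000 bases, H3K4me3 gave 6 genes (3 within 2000 bases) and H3K27me3 gave 3 (1 within 2000 bases). The change of Rhox6 in mESC kept its sign but missed the threshold with DESeq2 (-1.11) and without the filter (-1.09). It was -0.59 without KD library 2 and -0.90 without control library 1.

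The numbers in the column names gave no sign of pairing. Same-numbered KO and control columns correlated at -0.127 to 0.114 in their deviations at 18h to 22h, and differently numbered columns at -0.154 to 0.167. Deviations within so few libraries constrain each other, so this check cannot exclude pairing. At 24h the summed libraries that share column numbers correlated at -0.0206 and the others at 0.0206, values that mirror each other by construction with 2 libraries per group. The replicate block left the calls at 0 at 18h, 20h, 22h and 24h and gave 14 for mESC, and the log2 changes were 3.78 for Rhox2d at 18h and -4.88 for Rhox5 at 20h. With at most 68 counts per member and library in embryos, gathered in few libraries, precision was low: the log2 change of 2.05 for Rhox2d at 18h had an SE of 1.90. The chromatin regions have 1 column per condition.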
